A study of Mus musculus with 35 samples.

Results

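Of the 50861 Brg1 peaks called in newborn (P0) mouse retina, 18585 (36.5%, Wilson 95% interval 36.1 to 37.0%) overlapped no H3K27Ac or H3K4me3 peak at any stage measured, that is at P0, P12, P14 or P21. They are called Brg1 peaks without an active mark here, and they were selected because none of the 17 deposited H3K27Ac and H3K4me3 lists had a peak sharing at least 1 bp with them. Of the other 32276 Brg1 peaks, 26079 (51.3%) had an active mark already at P0 and 6197 (12.2%) had one only in a later list, the Brg1-deficient lists included. The count and the shares follow from the selection and carry no test. Brg1 itself was measured only at P0 and in 1 library, so the later lists show what was marked afterwards at places bound at P0, not where Brg1 was bound later.

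Brg1 is the ATPase of SWI/SNF (BAF) complexes, which use ATP to slide or eject nucleosomes. H3K27Ac is a mark of active promoters and enhancers, and H3K4me3 is found mainly at the start sites of genes that are active or poised. H3K27me3 is laid down by Polycomb repressive complex 2 and covers broad domains over silent developmental genes. The same lysine cannot carry an acetyl group and methyl groups at once, so H3K27me3 was not wholly independent of the way the peaks were chosen, although none of its lists entered the choice.

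The Brg1 library came from retinae of Brg1-FLAG knock-in pups at P0, whose Brg1 protein carries the FLAG tag that was immunoprecipitated. Wild-type retinae gave 2 libraries each of H3K27Ac and H3K4me3 at P0, P14 and P21 and 1 of each at P12. Brg1-deficient P12 retinae (labelled BRG1 -/-, from Chx10-Cre;Brg1 Lox/Lox mice) gave 2 H3K27Ac libraries and 1 H3K4me3 library. H3K27me3 was measured in 2 wild-type libraries at each of the 4 stages and in 1 Brg1-deficient P12 library. Chx10-Cre acts in retinal progenitor cells in a mosaic pattern, so the Brg1-deficient retinae still held cells with Brg1. The paper states that mice with microphthalmia, in which Cre was more widely expressed, were preferred for ChIP-seq to limit wild-type cells. The Brg1-deficient lists thus come mostly from selected small eyes. The H3K27me3 antibody was labelled AB1 at P0, P14 and P21 and AB3 at P12, so stage P12 and antibody cannot be told apart. The study describes its histone ChIP-seq replicates as biological replicates, and the labels do not say which animals went into each. The p-values thus measure the spread between these libraries, which mixes stages, antibodies and replicates. They cover no spread between Brg1 libraries, of which there was 1. All samples were whole retina, in which fewer cells carrying a mark and a weaker mark in every cell cannot be told apart.

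Peaks of Brg1, H3K27Ac and H3K4me3 were called in each library separately and have a height, given as fold enrichment at the summit. The H3K27Ac lists held 17433 to 50005 peaks and the H3K4me3 lists 18534 to 24124. The H3K27me3 lists held 12188 to 30996 domains covering 96.7 to 213 Mb, and both P14 lists stood apart from the rest on the autosomes. Wild-type P14 replicate 1 had 1.86 to 1.98 times the median share of its domains on chromosomes 1 to 4. Wild-type P14 replicate 2 covered the most of the genome, with 281 domains on chromosome 14 (0.311 times the median share), 1.52 times the median share on chromosome 5 and 0 domains on chromosome X. The Brg1-deficient list had 1.74 times the median share on chromosome 1. On chromosome X the lists varied most: P0 replicate 2, P12 replicate 1 and P21 replicate 2 had 1.57, 2.05 and 2.48 times the median share, with up to 3330 domains. Results on H3K27me3 are therefore also given without the P14 libraries and without chromosomes 1 to 5, 14 and X. The 13 autosomes left are called evenly called here, since no list differed from the median share on them by more than 1.5 times. P14 replicate 1 was still below the median share on all of them, at 0.670 to 0.781 times. The number of reads behind each list is unknown, so a mark that is missing from a list may have been below detection in that library.

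The Brg1 peaks without an active mark were low and short. Their median fold enrichment was 3.90 (quartiles 3.48 and 4.36), against 4.78 (3.94 and 6.19) at all other Brg1 peaks. The peaks marked only after P0 lay close to them, with a median of 4.0 (3.55 and 4.61), and the peaks marked at P0 were higher, at 5.06 (4.15 and 6.70). Their median length was 406 bp (342 and 538 bp), against 459 bp at peaks marked only after P0 and 736 bp at peaks marked at P0. Although they made up 36.5% of the peaks, they covered 9.02 of 39.5 Mb, or 22.8% of the sequence under Brg1 peaks. Because the peaks of 1 library are not replicates, these differences in height and length are given without a test.

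The share of peaks without an active mark fell steeply with height. It was 57.1% in the lowest decile of fold enrichment (1.79 to 3.33), 45.4% in decile 5 and 0.885% in the highest decile (7.29 to 35.7). Of the 16167 Brg1 peaks with a fold enrichment of at least 5, 1650 (10.2%) lacked an active mark. At 8 or more there were 10 among 3503 peaks, and at 10 or more 0 among 1400. The tallest one reached 9.40, whereas the tallest marked peak reached 35.7. The share fell in the same way with length, from 62.7% in the shortest decile (320 to 327 bp) to 3.17% in the longest (1484 to 22420 bp).

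**Figure D1:**
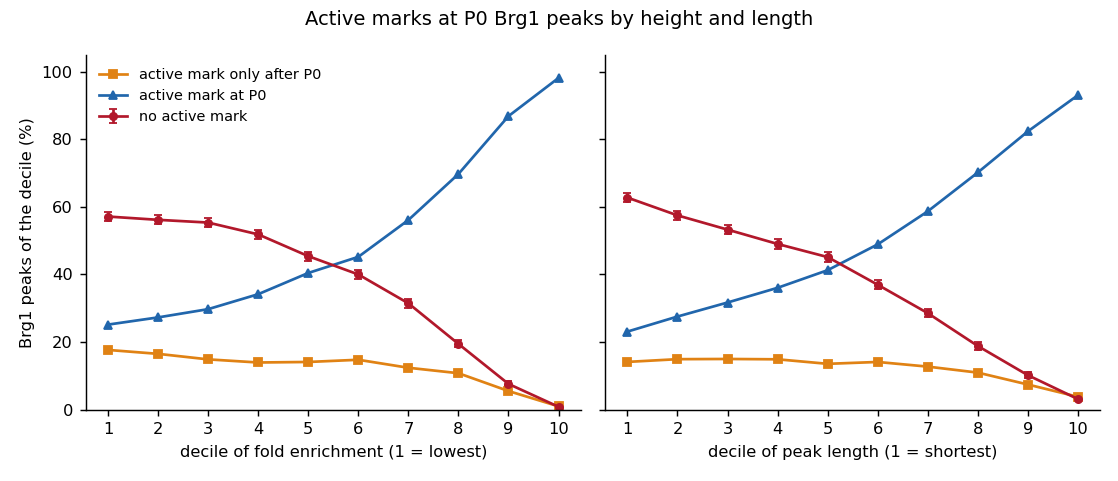
Share (%) of P0 Brg1 peaks without an active mark (circles, with Wilson 95% intervals), with a mark only after P0 (squares) and with a mark at P0 (triangles), in deciles of fold enrichment (left) and of peak length (right). The share without a mark drops from 57.1% to 0.885% with height and from 62.7% to 3.17% with length, while the share marked only after P0 never passes 17.7% of a decile of height.

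A longer peak has more room to touch a histone peak, so heights were also compared within quintiles of length. In the shortest quintile (320 to 359 bp) the median fold enrichment was 3.66 without and 3.67 with an active mark. The gap widened with length: it was 3.88 against 4.05 in quintile 2, 4.04 against 4.50 in quintile 3, 4.25 against 5.06 in quintile 4 and 4.94 against 6.75 in the longest (1004 to 22420 bp). Among the shortest peaks the heights were therefore nearly the same, and the gap grew from quintile 2 on. The longest quintile was wide: of peaks of at least 3000 bp, 8 lacked an active mark and 1016 had one. Heights there were thus not compared at equal length. Conversely, within quintiles of height their median length was the smaller one every time, from 365 against 397 bp in the lowest quintile to 761.5 against 1265 bp in the highest.

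Peaks on either side of the selection limit looked alike. The 907 peaks without an active mark that lay within 100 bp of an active peak had a median height of 3.94 and were 416 bp long in the median. The 831 peaks that counted as marked through 1 list and an overlap of at most 100 bp had 3.94 and 419 bp. Of all marked peaks, 4506 owed the mark to 1 list alone, and 2501 of these (55.5%) to replicate 2 of wild-type P0 H3K27Ac. The 3 Brg1-deficient P12 lists alone marked 524 peaks (median fold enrichment 4.05, median length 453 bp), so 19109 peaks lacked a mark in every wild-type list. At the other extreme, 6440 Brg1 peaks were marked in all 17 lists, with medians of 6.51 in height and 987 bp in length.

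The 8 tallest peaks without an active mark had fold enrichments of 8.44 to 9.40 and differed in their surroundings. The tallest, chr15:82813541-82815208 (mm9, as are all positions here), was 1668 bp long, lay 2056 bp from the nearest active peak and was inside an H3K27me3 domain in all 8 wild-type libraries. The second, chr17:46069628-46071370 with a fold enrichment of 9.25, lay 519 bp from an active peak and was inside a domain in 5 of the 8 libraries. The third, chr16:57314649-57315696 with 8.72, was the most isolated of the 8: its nearest active peak was 24889 bp away, and it was in no H3K27me3 domain. The fourth, chr11:95506185-95507100 with 8.71, was 9325 bp from an active peak and inside a domain in 7 libraries.

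The others of these 8 all had an active peak within 1695 bp. They were chr10:126959846-126960404 at 74 bp, chr1:24252616-24253114 at 165 bp, chr11:35869957-35870695 at 963 bp and chr11:112838058-112841537 at 1695 bp. The first of these was in a domain in 1 library, the last in 3, and the other two in none. Thus 6 of the 8 had an active peak within about 2 kb, where 47.1% of all peaks without an active mark had one within 2000 bp. H3K27me3 was found at some of the tallest peaks but not at others. Of all peaks without an active mark, 58.3% were in no domain in any of the 8 wild-type libraries. The 8 peaks were picked by height, and whether they differed from the rest was not tested.

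The 3 longest peaks were of different kinds. The longest, chr4:153872231-153878944, spanned 6714 bp with a fold enrichment of 3.92 and was in an H3K27me3 domain in all 8 wild-type libraries. The third, chr19:7220331-7224206, spanned 3876 bp with 6.76 and was in a domain in 6. The second, chr17:39979959-39983915, spanned 3957 bp with a fold enrichment of 1.84, close to the lowest of all members (1.82), but had a −log10 q-value of 16.6, against a median of 4.32. The same pairing of low height and high −log10 q-value was seen at the 3 peaks farthest from any active peak. These were chr2:98506179-98507694 (fold enrichment 3.39, −log10 q-value 44.8, the highest of all members, 1122 kb away), chr2:98502254-98503196 (2.49, 29.9, 1118 kb) and chr17:39984384-39985871 (2.23, 25.7, 836 kb). Peaks with a fold enrichment under 4 and a −log10 q-value over 15 numbered 9 among the 18585 and 1 among the other 32276, limits that were chosen after these values were seen. No list of known high-signal regions was applied, and whether these peaks lie in such regions was not tested.

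With the 17 lists pooled, most of the peaks lay within 10 kb of an active peak without overlapping it. The median distance to the nearest active peak, edge to edge, was 2334 bp (quartiles 626 and 9484 bp). Within 1 kb there were 6263 (33.7%), within 10 kb 14115 (75.9%), and beyond 100 kb 254 (1.37%). The nearest active peak was H3K27Ac for 66.1% and H3K4me3 for 33.8%. The median distance was 3021 bp to H3K27Ac and 13110 bp to H3K4me3. Nearness to active peaks was not particular to these peaks. In wild-type P0 replicate 2, 3.83% of positions 10 kb from their summits were in an H3K27Ac peak, against 3.76% at all other Brg1 peaks. At 100 kb the values were 2.44% and 2.38%. In wild-type P14 replicate 2 they were 4.10% against 8.68% at 10 kb and 4.48% against 5.13% at 100 kb. Around the unmarked summits, every later wild-type H3K27Ac list had a lower share at 10 kb than at 100 kb. In P21 replicate 2, for example, it was 2.94% and 3.44%. Both P0 H3K27Ac lists had a higher share at 10 kb. The pooled distances thus do not show that active peaks were denser around these peaks than in their wider surroundings. The median distance rested in part on 1 list: without replicate 2 of wild-type P0 H3K27Ac it was 4180 bp, over the 21086 peaks that then lacked a mark.

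**Figure D2:**
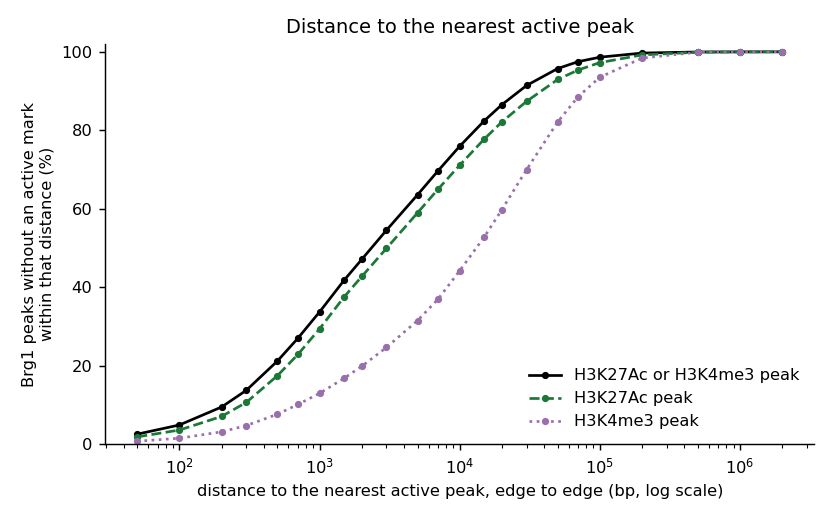
Percentage of the 18585 Brg1 peaks without an active mark (vertical axis) that lie within a given distance (bp, log scale) of the nearest H3K27Ac or H3K4me3 peak (solid), H3K27Ac peak (dashed) or H3K4me3 peak (dotted) of any list. The curves pass 33.7%, 29.4% and 12.9% at 1 kb and 98.6%, 97.3% and 93.5% at 100 kb, so the H3K4me3 curve lies to the right of the others.

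By stage, wild-type active peaks were nearest at P0, with a median distance of 4396 bp (quartiles 1030 and 15914 bp). The medians were 10577 bp at P12, 9516 bp at P14 and 11869 bp at P21, and 10027 bp for the Brg1-deficient P12 lists. The stages had 4, 2, 4 and 4 wild-type lists of these marks at P0, P12, P14 and P21 and the Brg1-deficient retinae 3, and these lists differed in size, so the distances are given as values only. The P0 lists were of the same stage as the Brg1 library. The 2 P0 H3K27Ac lists differed: at 1 kb from the summits, 0.947% of positions were in a peak of replicate 1 and 4.82% in one of replicate 2. The later wild-type H3K27Ac lists had 0.301 to 3.52%. The P0 H3K4me3 lists had 3.37% and 4.05%, and the later wild-type ones 1.79 to 2.95%. The P0 distance without replicate 2 of H3K27Ac was not computed.

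The peaks also lay close to each other. The nearest other Brg1 peak without an active mark was at a median of 2923 bp, and the nearest marked Brg1 peak at 4686 bp. For marked Brg1 peaks the order was the opposite, with medians of 548 bp to another marked peak and 19400 bp to an unmarked one. The nearest Brg1 neighbour lacked an active mark for 56.0% of the unmarked peaks and for 19.8% of the marked ones, where 36.5% of all Brg1 peaks lacked one. Following the Brg1 peaks along each chromosome, 4184 of the unmarked peaks stood alone between marked ones. A further 8255 formed runs of 2 to 4, and 6146 stood in 812 runs of 5 or more.

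The longest run, chr17:27466402-27568094, held 34 consecutive Brg1 peaks without an active mark over 101693 bp, and their heights had a median of 3.46 and reached 6.06. The next was chr9:61410215-61663055, with 30 peaks over 252841 bp and a median of 3.69. The third was chr12:113406042-113474748, with 28 peaks over 68707 bp and a median of 3.64. The 3 runs differed in H3K27me3. Of all Brg1 peaks, 16.5% were in a domain in both P0 libraries, 22% in both P12, 19.1% in both P14 and 20.4% in both P21 libraries. In the chr17 run the counts for these stages were 16, 21, 11 and 27 of 34 peaks. In the chr9 run they were 7, 23, 19 and 25 of 30. In the chr12 run they were 1, 13, 1 and 3 of 28. The count was thus lowest at P14 in the chr17 run, whereas the chr9 run had more peaks in a domain at each later stage than at P0. The P14 counts need both P14 lists. Replicate 1 of these had 0.778, 0.681 and 0.734 times the median share of domains on chromosomes 17, 9 and 12.

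The peaks were unevenly spread. Over the 19 autosomes the share of Brg1 peaks without an active mark ran from 30.2% on chromosome 3 to 43.3% on chromosome 4 (1894 of 4378 peaks, interval 41.8 to 44.7%), with a median of 36.3%. The interval lay above the share of the whole set on 4 autosomes and below it on 7. These intervals treat each peak as independent, whereas unmarked peaks lay close to each other, so they are likely too narrow. All peaks came from 1 Brg1 library, and differences between chromosomes were not tested. Chromosome X stood apart from all autosomes, with 82 of 456 peaks (17.98%, 14.7 to 21.8%). It also had few Brg1 peaks of any kind, 2.74 per Mb up to its last peak against 11.6 to 40.8 on the autosomes, and 78.5% of its Brg1 peaks were marked at P0. Chromosome 11 held the largest number, 1908, or 15.7 per Mb. The height hardly changed between chromosomes: the median fold enrichment of the unmarked peaks was 3.83 to 3.94 on the autosomes and 4.13 on X.

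**Figure D3:**
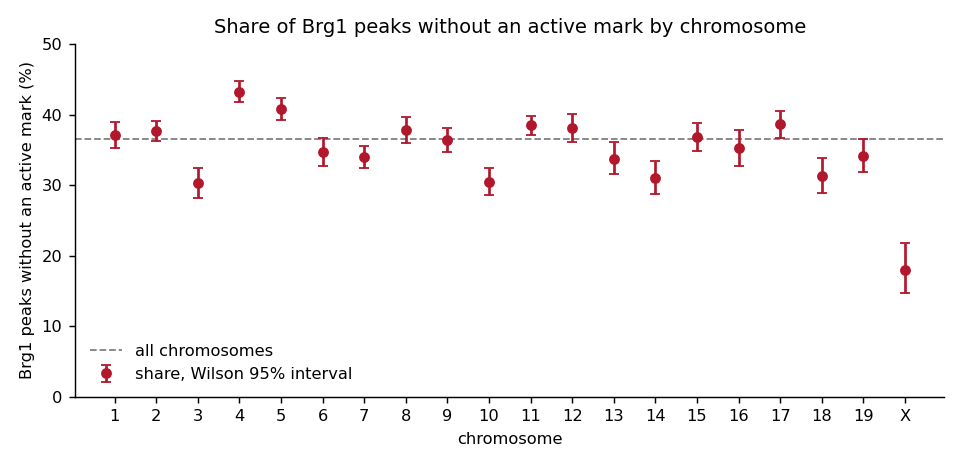
Share (%) of Brg1 peaks without an active mark on each chromosome, with Wilson 95% intervals that cover counting error only. The intervals treat neighbouring peaks as independent. The dashed line is the share over all chromosomes, 36.5%. Chromosome 4 is highest at 43.3% and chromosome X lowest at 17.98%, with an interval that does not reach any autosome's.

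On a smaller scale the genome was divided into windows of 1 Mb. Of the 2079 windows with a Brg1 peak, 1501 held a peak without an active mark, and 36 held no other kind. The 208 windows richest in unmarked peaks held 51.5% of them. The 208 windows richest in marked peaks held 37.8% of the marked ones. The 5 richest windows held 108 to 138 each, against a median of 6 over windows that held any.

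These 5 windows were at 27000001-28000000 on chromosome 17 (138 unmarked and 76 other Brg1 peaks), 113000001-114000000 on chromosome 11 (132 and 57), 61000001-62000000 on chromosome 9 (127 and 21), 113000001-114000000 on chromosome 12 (123 and 50) and 84000001-85000000 on chromosome 15 (108 and 45). All 5 had more unmarked than marked Brg1 peaks. Their median fold enrichments, 3.72 to 3.89, were a little below the 3.90 of the whole set. In each, more of the unmarked peaks were in a domain in both libraries at P21 than at P0. On chromosome 15 the counts at P0, P14 and P21 were 0, 39 and 84 of the 108 unmarked peaks, and 3, 15 and 23 of the 45 other Brg1 peaks. On chromosome 9 they were 27, 88 and 103 of 127, and 1, 8 and 12 of the 21 others. On chromosome 11 they were 4, 45 and 52 of 132, and 4, 12 and 13 of the 57 others. The other Brg1 peaks of these 3 windows thus also had more H3K27me3 at P21 than at P0. On chromosomes 17 and 12 the P14 counts were near those at P0, but the P12 counts were higher. At P0, P12, P14 and P21 they were 26, 40, 27 and 52 of 138 unmarked peaks on chromosome 17, with 5, 13, 6 and 8 of 76 others. On chromosome 12 they were 9, 26, 9 and 32 of 123, with 12, 13, 9 and 12 of 50 others. At P12 the unmarked counts were 68 on chromosome 15, 97 on chromosome 9 and 50 on chromosome 11. A P14 count needs both P14 lists. Replicate 1 had 0.778 and 0.734 times the median share of domains on chromosomes 17 and 12. It had 0.735, 0.681 and 0.685 times on chromosomes 15, 9 and 11.

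H3K27me3 was found at a minority of the peaks without an active mark, and at more of them after P0. At P0, 14.9% and 17.6% of them overlapped a domain in the 2 wild-type libraries. The later libraries gave 28.1% and 26% at P12, 22.2% and 35.5% at P14 and 25.1% and 26.4% at P21. All 6 later values were above both P0 values. Brg1 peaks as a whole went from 17.5% and 20.5% at P0 to 26% and 24.8% at P12, 20.03% and 28.7% at P14 and 21.9% and 23.6% at P21, so they were also mostly higher later. The Brg1-deficient P12 library gave 25.9%, just below both wild-type P12 libraries, with no replicate and no test. Each of these percentages has a Wilson 95% interval of less than 0.7 points on either side, which covers counting error only.

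The peaks with an active mark only after P0 went the other way. They were in a domain in 9.36% and 11.3% of cases at P0, and in 4.89 to 8.91% in the 6 later libraries. Peaks with an active mark at P0 were in a domain in 21.3% and 24.7% of cases at P0 and in 22.1 to 28.8% later. They thus had the most H3K27me3 of the 3 kinds at P0, while at P21 their 23.6% and 25.8% lay within 2 points of the peaks without an active mark.

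**Figure D4:**
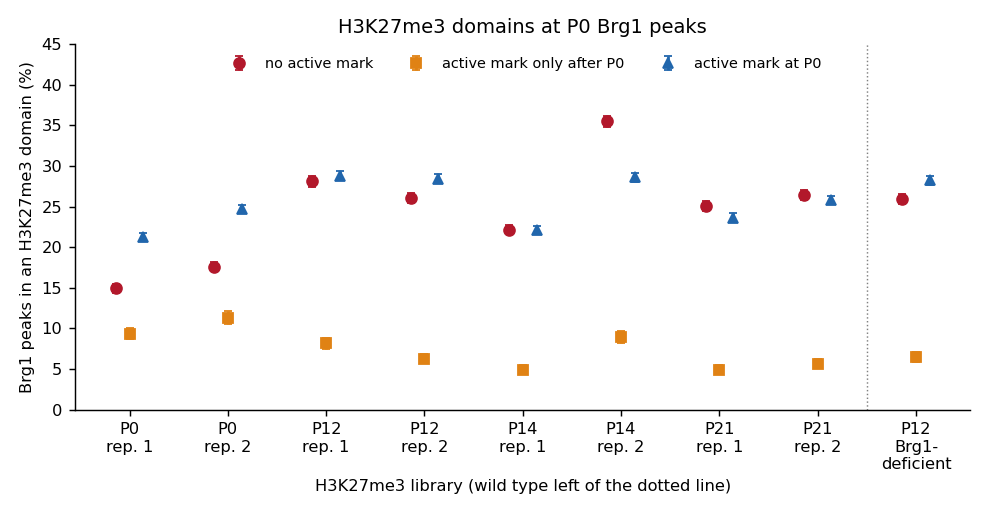
Percentage of Brg1 peaks that overlap an H3K27me3 domain in each library (horizontal axis), for peaks without an active mark (circles), with a mark only after P0 (squares) and with a mark at P0 (triangles); bars are Wilson 95% intervals. The circles rise from 14.9 and 17.6% at P0 to 22.2 to 35.5% in the later wild-type libraries, the squares lie between 4.89 and 11.3% in all 9, and wild-type P14 replicate 2 has the highest circle.

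Whether the peaks without an active mark differed from the others in H3K27me3 was tested on the difference in percentage points within each of the 8 wild-type libraries, with an exact two-sided sign-flip permutation test whose smallest p is 0.00781. Against the peaks marked only after P0 the difference was positive in 8 of 8 libraries, 5.56 to 26.6 points, with a mean of 17.03 ± 7.34 (SD, n = 8; exact permutation p = 0.00781, adjusted over 3 comparisons 0.0234). Without the P14 libraries the mean was 15.4 points (n = 6, exact permutation p = 0.0313, adjusted 0.0938), where 6 libraries cannot give a p below 0.0313. On the 13 evenly called autosomes it was 16.6 points (n = 8, exact permutation adjusted p = 0.0234). This comparison is not independent of the choice of the peaks, since those marked only after P0 were chosen on acetylation of the same lysine or on H3K4me3 at the later stages.

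Against all other Brg1 peaks no difference passed the test over the 8 libraries together. The differences were -4.06 and -4.51 points at P0, 3.28 and 1.85 at P12, 3.37 and 10.7 at P14, and 5.06 and 4.46 at P21. Their mean was 2.51 ± 4.94 points (SD, n = 8; exact permutation p = 0.203, adjusted 0.305). The values show that the P0 libraries lay on one side of 0 and the later ones on the other. Against the peaks marked at P0 the mean was -0.94 ± 4.46 points (SD, n = 8; exact permutation p = 0.547, adjusted 0.547), with -6.34 and -7.08 points at P0 and -2.40 to 6.88 later.

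The change between P0 and the later stages was noticed in these values and is given as a description, with no test. Relative to all other Brg1 peaks, the mean difference was -4.28 points over the 2 P0 libraries and 4.78 points over the 6 later ones, a change of 9.06 points. The change is not independent of the choice of the peaks. Those without an active mark had to lack one at the later stages too. The others included the 6197 peaks marked only after P0. The P0 lists covered the least of the genome, 96.7 and 114 Mb, against 127 to 213 Mb later. With the 12188 strongest domains of every list the change was 8.72 points, and it was 9.71 points on the evenly called autosomes. Without the P14 libraries it was 7.95 points and without the P12 libraries, which had the other antibody, 10.2 points. Relative to peaks marked at P0 the mean difference was -6.71 points at P0 and 0.99 points later, which became -0.25 points later without the P14 libraries.

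Counted over libraries of the same stage, 2525 of the 18585 peaks without an active mark (13.6%) were in a domain in both P0 libraries, where 16.5% of all Brg1 peaks were. For both P12 libraries the share was 22.7%, against 22% of all Brg1 peaks, and for both P14 libraries 20.9%, against 19.1%. For both P21 libraries it was 22.2% (4133 peaks), against 20.4%. A domain in all 8 wild-type libraries was found at 1797 (9.67%), against 11.3% of all Brg1 peaks, and 10837 (58.3%) were in no domain in any of the 8, against 63.1% of all Brg1 peaks. Most of these shares were thus near those of Brg1 peaks as a whole. The share in a domain in both P21 libraries but neither P0 library was 8.72% (1621 peaks), against 5.97% of all Brg1 peaks and 4.39% of the marked ones. The reverse, both P0 and neither P21 library, was found at 276 (1.49%), against 3.86% of the marked Brg1 peaks.

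Peaks inside and outside H3K27me3 domains had similar median heights and lengths. The median fold enrichment was 3.94 for those in a domain in all 8 libraries and 3.89 for those in none, and the median lengths were 411 and 399 bp. When the unmarked peaks were split into quintiles of height, the highest (4.50 to 9.40) had the largest share in a domain in every wild-type library. At P21 it had 27.7% and 29.7%, and the lowest quintile had 25.3% and 26.2%. The 1621 peaks in a domain at P21 but not at P0 lay farther from active peaks, at a median of 3640 bp, than the 1797 in a domain in all 8 libraries, at 1515 bp. The 3 tallest of the last kind were the chr15 peak described above, chr19:7237930-7238709 (fold enrichment 7.88, 51 bp from an active peak) and chr3:88023605-88027066 (7.62, 3292 bp).

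H3K27me3 varied with the distance to the nearest active peak, in no single direction. Of the 6263 peaks within 1 kb of an active peak, 17.1% and 19.6% were in a domain in the P0 libraries. Of the 4270 at 5 to 20 kb the shares were 11.8% and 15.2%, and of the 2249 at 20 to 100 kb they were 13.5% and 16.7%. At P21 they were 23.7% and 25.3% within 1 kb, 26.1% and 27.3% at 5 to 20 kb and 28.1% and 29.7% at 20 to 100 kb. P14 replicate 2 had 31.6%, 39.6% and 40.4% at these distances. The 254 peaks beyond 100 kb had lower shares again, 10.6% and 14.2% at P0, 26.8% in P14 replicate 2 and 19.3% and 22.8% at P21. These are values over peaks of 1 Brg1 library, with no test.

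Positions up to 100 kb from the summits of unmarked peaks were also often inside a domain. These shares count any domain and do not measure how far the domain at a summit reached. At P21, 24.4% and 25.4% of the summits without an active mark were inside a domain, and so were 19.4% and 19.7% of the positions 10 kb away and 14.9% and 15.6% of those 100 kb away. At peaks marked at P0 the fall was steeper, from 23.1% and 25.1% at the summit to 11.8% and 12.5% at 10 kb. Over the 8 wild-type libraries the share at the summit was 1.41 to 1.79 times that at 100 kb for peaks without an active mark, 1.70 to 2.54 times for peaks marked at P0, and 0.483 to 1.08 times for those marked only after P0. At P0 the shares of the peaks without an active mark were 14.4% and 16.7% at the summit, 11.99% and 13.98% at 10 kb and 10.02% and 11.9% at 100 kb.

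**Figure D5:**
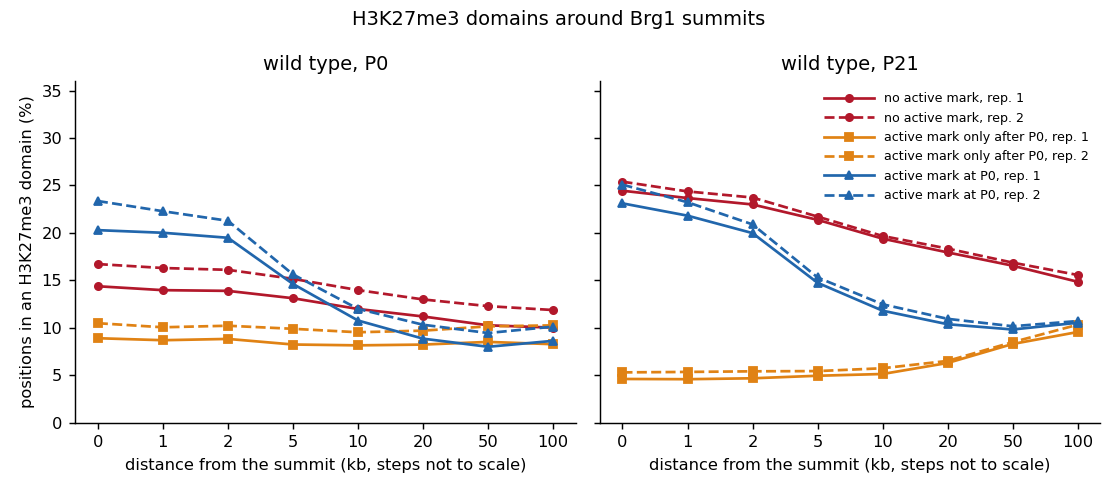
Percentage of positions inside an H3K27me3 domain (vertical axis) at the Brg1 summit and at fixed distances to both sides (kb, steps not to scale), in the P0 (left) and P21 (right) wild-type libraries, replicate 1 solid and replicate 2 dashed. At P21 the peaks without an active mark (circles) hold 19.4 and 19.7% at 10 kb where those marked at P0 (triangles) are at 11.8 and 12.5%; those marked only after P0 (squares) are lowest at the summit at P21, 4.62 and 5.31%.

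Domains that held a Brg1 peak without an active mark were a small share of all domains, 9.0 to 12.9% in the 8 wild-type lists. In each list, as for domains with only marked Brg1 peaks, domains in which all Brg1 peaks lacked an active mark (644 to 1641) had a longer median length than domains without a Brg1 peak, for example 7800 against 5000 bp in P0 replicate 1 and 6200 against 3000 bp in P21 replicate 2. Domains with only marked Brg1 peaks had medians of 7000 and 5400 bp in these lists. A longer domain has more room for a peak, and the comparison is given without a test.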

How the data were processed

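Brg1-FLAG ChIP-seq of P0 knock-in retinae (1 library) and H3K27Ac (9), H3K4me3 (8) and H3K27me3 (9) ChIP-seq of wild-type and Brg1-deficient retinae were analysed from 27 lists. Input libraries and H3K4me1 were not analysed here. The submitters' processing notes name BWA 0.5.9-r26, Picard 1.65, SAMtools, CASAVA, MACS2 2.0.9, SICER 1.1, bedtools 2.17.0, R 2.14.0 and build mm9, without roles or order. For Brg1, H3K27Ac and H3K4me3 the authors deposited peaks per library with a fold enrichment at the summit (a ratio) and −log10 p-values and q-values. For H3K27me3 the authors deposited domains on a grid of 200 bp with a score whose meaning is not given in the sources used here. It served only to rank domains in 1 alternative. Reads per library are unknown. The peak and domain numbers stand in for depth, and intervals cover counting error only.

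Groups came from the sample titles. The H3K4me3 P14 libraries are replicates 2 and 3 by title, although their lists are numbered 1 and 2. The set of peaks, the lists and the regions named were chosen with earlier results of these data known. Overlap meant at least 1 bp. Distances are edge to edge. The regions named were the 8 tallest, the 3 longest, the 3 farthest from an active peak, the 3 longest runs, the 5 richest 1 Mb windows and the 3 tallest in a domain in all 8 wild-type libraries. Heights, lengths, distances and chromosome shares had no test. H3K27me3 was compared within libraries by an exact sign-flip permutation test (8 wild-type libraries, 256 sign patterns, Benjamini-Hochberg over 3 comparisons, threshold 0.05). Alternatives changed the overlap rule, the lists, the peaks, the domains and the libraries. Python 3.11.15, numpy 2.4.6, pandas 2.3.3, scipy 1.17.1 and matplotlib 3.10.9 were used. Overlap counts were checked against bedtools 2.31.1 (27 lists, 0 differed) and tested on simulated intervals (0 wrong calls). No genome or annotation of mm9 was used, so the planned look at sequence, genes and promoters was not made, no sequence is printed, and the labelled tissue was not checked against marker genes.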

Additional observations from a re-analysis of the deposited data

Results flagged for a closer look

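The difference in H3K27me3 between Brg1 peaks without an active mark and all other Brg1 peaks had opposite signs at P0 and at the later stages. Both P0 libraries were below 0, with a mean of -4.28 percentage points, and all 6 later wild-type libraries were above 0, with a mean of 4.78 points. The change was 9.06 points. It was picked out because every library of one group lay on the opposite side of 0 from every library of the other, and the difference between the stages was not tested. The change is not independent of the choice of the peaks, which had to lack active marks at the later stages too.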

How the results depend on the processing

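The number of peaks without an active mark (18585) was 12322 when an active peak within 1000 bp also counted, and 4904 among the strongest 50% of Brg1 peaks. Leaving out each list in turn gave 18585 to 21086. The share (36.5%) was 40.7% with an overlap of at least 50%, 24.2% with active peaks within 1000 bp, 19.3% among the strongest 50% of Brg1 peaks, 52.9% with the strongest 50% of histone peaks, 37.6% with the 14 wild-type lists, 45.4% when at least 2 lists were needed, and 36.5 to 41.5% without each list. The median fold enrichment (3.90) was 3.88 with active peaks within 1000 bp (others 4.51), 4.78 among the strongest 50% (others 5.68), 3.66, 3.88, 4.04, 4.25 and 4.94 within quintiles of length, and 3.90 to 3.94 without each list. The median length (406 bp) was 400 and 522 bp under the first 2 of these settings (others 600 and 911 bp), 365, 383, 429, 531 and 761.5 bp within quintiles of height, and 406 to 418 bp without each list. The median distance (2334 bp) was 2861 bp between summits, 1793 bp for the strongest 50% of Brg1 peaks, and 2331 to 4180 bp without each list, the last without replicate 2 of wild-type P0 H3K27Ac. Among the strongest 50% the shares on chromosomes X and 4 were 12.5% and 25.5%.

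For H3K27me3, the mean difference from peaks marked only after P0 (17.03 points) stayed positive in every setting run. Every setting still chose both kinds of peak by their active marks at the later stages. The constant sign is therefore not independent of that choice and gives the result no further support. The mean difference was 15.7 to 18.7 points without each library. It did not pass the threshold after adjustment at 16.1 points without P12 and 15.4 points without P14 (exact permutation adjusted p = 0.0938 for both). With 6 libraries p cannot go below 0.0313. In the 6 libraries of P12, P14 and P21 alone it was 20.7 points and passed (exact permutation adjusted p = 0.0469). That setting was chosen after the values were seen, which gives the result no support. The difference from all other Brg1 peaks (2.51 points) was 1.35 to 3.52 points without each library and passed in the 6 libraries of P12, P14 and P21 alone (4.78 points, exact permutation adjusted p = 0.0469), a setting chosen after these 6 values were seen to be positive, which gives the result no support. Its lowest value, 1.35, was without wild-type P14 replicate 2, and without both P14 libraries it was 1.01 points (exact permutation adjusted p = 0.563). The difference from peaks marked at P0 (-0.94 points) was -2.05 to -0.06 points without each library and turned positive for the strongest 50% of Brg1 peaks (2.07 points) and in the 6 later libraries (0.99 points), never past the threshold. The other 136 values over all results and settings kept their direction and their side of the threshold, or, with no test, moved by less than their interval or by less than 1.5 times. The causes were not tested. The settings without the P14 libraries and on evenly called chromosomes were also chosen after seeing the data. No paired analysis was possible because no test compares groups of libraries. The tested differences are already taken within each library.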
